A study of Homo sapiens with 15 samples.

Results

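CRISPR interference at the ERG promoter was compared with a control guide in Reh, an established B-lymphoblastic leukaemia line that carries the ETV6::RUNX1 fusion. The libraries were chosen by their titles: 3 sgERG and 3 sgCtrl, 6 of the 15 libraries of the series. All 6 came from Reh populations with a stably integrated, doxycycline-inducible dCas9-KRAB, a cutting-deficient Cas9 joined to a repressor domain. These populations also carried a guide vector with a fluorescent reporter and were sorted. The sgERG guide was directed to the ERG promoter and the sgCtrl guide was non-targeting. Both groups received 500 ng/ml doxycycline for 72 hours, so the controls also carry induced dCas9-KRAB. The number of guides per target and of clones is not given in the sources used here, and no label says that replicates were separate cultures. The p-values therefore cover the variation among libraries alone, which may be technical. The rest of the series holds Reh populations with doxycycline-inducible, V5-tagged ETV6 or the fluorescent protein tagBFP, at the same dose for 48 hours. Of these, the wild-type ETV6 (ETV6_WT) and tagBFP libraries, 3 each, are set beside the guides at the end.

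ERG is a transcription factor of the ETS family, whose members share a DNA-binding domain that recognises a GGAA core. In blood it is known for maintaining stem and progenitor cells and for an early role in B-lymphocyte development, and its gene lies on the chromosome often gained in acute leukaemia. ETV6 belongs to the same family but acts mainly as a repressor, and Reh cells have lost their unrearranged ETV6 copy.

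The 3 sgERG libraries held 31881225 to 35735920 reads and the 3 sgCtrl libraries 39873358 to 52481351, so every control was deeper than every sgERG library. Levels below are CPM, the reads of a gene relative to the library's total, scaled by trimmed mean of M values (TMM) and not corrected for gene length. One sgERG library stood apart along GC content. In sgERG replicate 3, genes in the lowest of 8 GC bins had a median log2 deviation of -0.15 from the mean of the 6 libraries, and those in the highest bin 0.14. The other 5 libraries stayed between -0.06 and 0.06. Genes that rose had a median transcript GC content of 56.3%, those that fell 47.1% and the remainder 48.5%. Counts are therefore given below also without single libraries where these move them. B-lymphoblast genes were present, with a summed level of 8388 to 8557 CPM over the list in sgERG and 9344 to 9487 CPM in sgCtrl. VPREB1 alone of its 12 genes had no read. RAG1 alone held 3289 to 3500 CPM of the sgERG sums and 4238 to 4365 CPM of the sgCtrl sums. Of 11 tested members 4 fell and 2 rose, CD24 and PAX5, beside 7.74% and 6.89% over all tested genes. The sum is therefore no measure of the list as a whole. In bulk RNA, fewer cells of a type and less RNA per cell cannot be told apart.

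**Figure D1:**
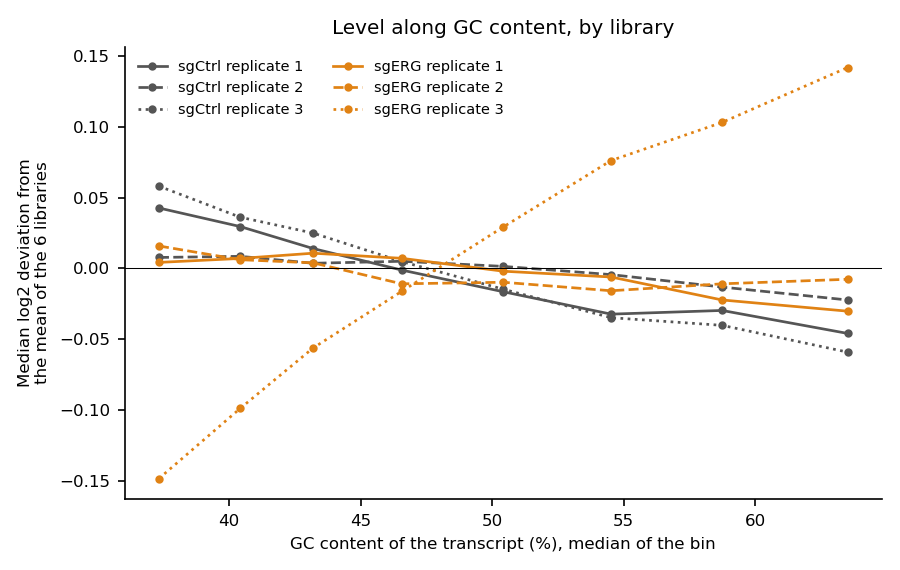
Each line is 1 library, sgCtrl in grey and sgERG in orange. The x axis is the median GC content (%) of 8 bins of genes with at least 5 CPM, and the y axis is the median log2 deviation of the library from the mean of the 6. The line of sgERG replicate 3 runs from -0.15 to 0.14, and the other 5 lie between -0.06 and 0.06.

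ERG (ENSG00000157554, chr21:38380027-38661780, minus strand, hg38) was at 529.5, 527 and 517.5 CPM in the sgCtrl libraries and at 104.2, 109.6 and 101.5 CPM in the sgERG libraries. The groups did not overlap, and 20.0% of the control level was left. The log2 change was -2.32 (SE 0.04, adjusted p = 9.2e-10, edgeR quasi-likelihood test with Benjamini-Hochberg adjustment). On the deposited TPM scale, which corrects for transcript length, 22.5% was left. For this single value an exact two-sided permutation test of 3 against 3 gave p = 0.1, the smallest it can give.

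ETS2, the ETS gene next to ERG on chromosome 21, lies 143.5 kb from its body and was the opposite case. It was at 524.1, 518.3 and 519.5 CPM in sgCtrl and 1099, 1104 and 1121 CPM in sgERG, with no overlap and almost no spread within either group. It rose by 1.09 on the log2 scale (SE 0.03, adjusted p = 2.4e-08, edgeR quasi-likelihood test). Of the 9 tested genes within 1 Mb of ERG, PSMG1, a proteasome assembly chaperone, rose by 0.32, and the other 7, among them KCNJ15 on the far side of ERG, were not called. None of the 9 fell.

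Across the transcriptome, 13464 genes were tested and 1969 (14.6%) passed an adjusted p of 0.05 in edgeR's quasi-likelihood test. Of these, 927 (6.89%) were higher and 1042 (7.74%) lower with sgERG. Most changes were small, with a median size of 0.35 on the log2 scale, and 267 genes changed at least 2-fold, 125 up and 142 down. Many of these had few reads: 83 of the 125 and 90 of the 142 averaged under 5 CPM. Groups did not overlap for 34.6% of tested genes, so a lack of overlap alone says little here. Without sgCtrl replicate 1 there were 1160 calls, and without sgCtrl replicate 3 there were 1162. The count was higher, at 2302, without sgERG replicate 3, the library that stood apart along GC content. It was 2560 with an offset for GC content.

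**Figure D2:**
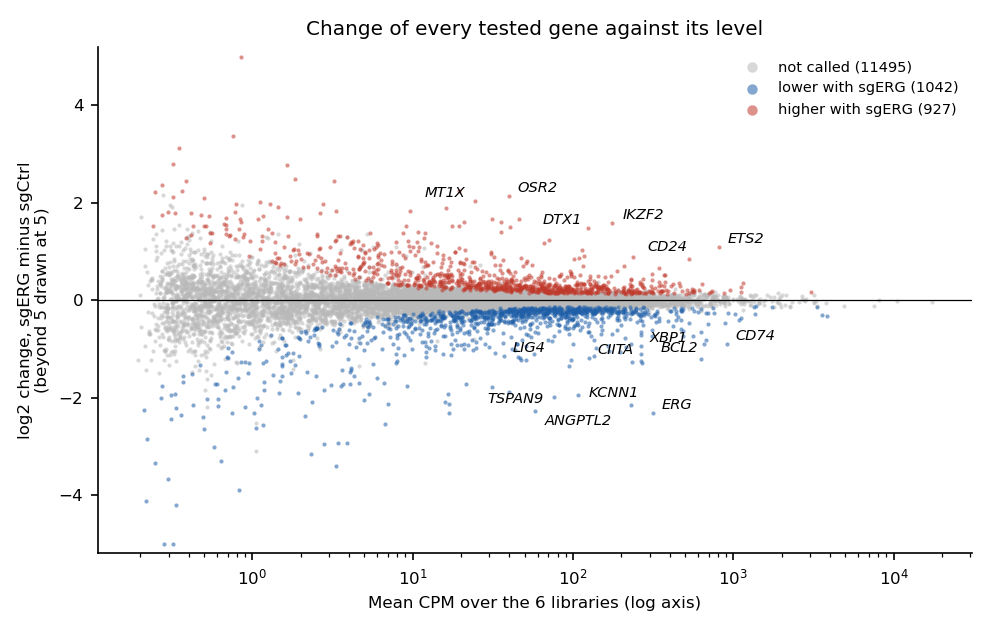
Each point is 1 of the 13464 tested genes, with its mean CPM over the 6 libraries on the x axis (log scale) and its log2 change, sgERG minus sgCtrl, on the y axis (3 values beyond 5 are drawn at 5). Called genes are red (927 higher) or blue (1042 lower), and ERG at -2.32 lies farther from 0 than any labelled gene of its level.

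The largest falls were taken among genes with at least 5 CPM and no exon overlap with another tested gene. ANGPTL2, a secreted angiopoietin-like protein, was at 95.8, 94.6 and 95.7 CPM in sgCtrl and 20.1, 18.6 and 20.6 CPM in sgERG, a log2 change of -2.27 (SE 0.05, adjusted p = 4.1e-09, edgeR). TSPAN9, a tetraspanin membrane protein, went from 118.5, 124 and 122.6 CPM to 30.4, 28.7 and 32.8 CPM (log2 change -1.99). For both genes every sgERG library was below every control.

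KCNN1, a calcium-activated potassium channel, was at 171, 177 and 164 CPM in sgCtrl and 42.5, 41.7 and 48.6 CPM in sgERG (log2 change -1.95). UNC13A, which primes synaptic vesicles, fell by 2.32 on the log2 scale, from 28.1 ± 0.85 to 5.64 ± 1.6 CPM (SD, n = 3 each). Further falls were those of DPF3, a subunit of BAF chromatin remodelling complexes (-2.12), MMP15, a membrane-anchored metalloproteinase (-1.93), and SLC17A7, a vesicular glutamate transporter (-1.72). TRNP1 (-2.09), SOWAHD (-1.92), FAM69C (-1.78), RUBCNL, an autophagy regulator (-1.77), RERGL (-1.59), ABHD3, a phospholipase (-1.35), and TENT5C, a poly(A) polymerase (-1.29), complete the group. Groups did not overlap for any of these by the rule that chose them. GABRA4, a subunit of the GABA-A receptor chosen after its values were seen, was at 377, 372 and 369 CPM in sgCtrl and 88.0, 88.8 and 75.6 CPM in sgERG, but its exons overlap those of GABRB1 on the other strand.

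**Figure D3:**
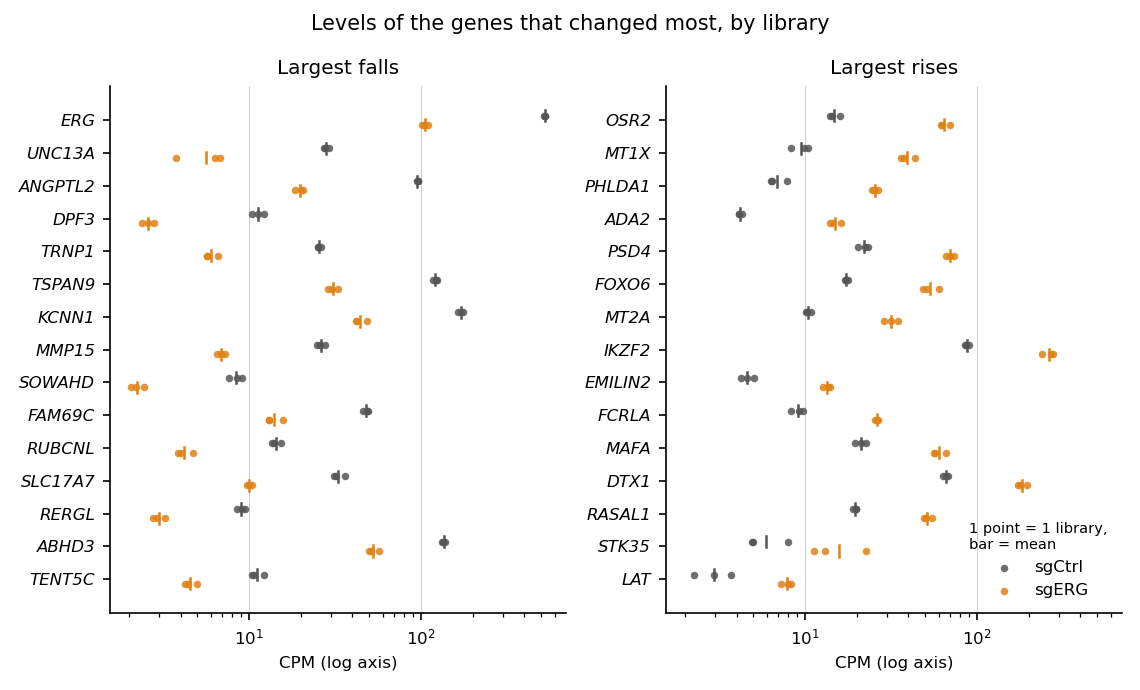
Each point is the CPM of 1 gene in 1 library (log axis), grey for sgCtrl and orange for sgERG, with a bar at the mean of 3. The left panel shows ERG and the other largest falls, the right panel the largest rises, and in every row the 3 libraries of one group lie to one side of the other 3.

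The largest rises began with OSR2, a zinc-finger transcription factor, which was at 14.01, 16.04 and 14.29 CPM in sgCtrl and 61.9, 62.8 and 69.5 CPM in sgERG (log2 change 2.13, SE 0.07, adjusted p = 4.1e-08, edgeR). IKZF2, which encodes the Ikaros-family factor Helios, was at 85.7, 87.0 and 90.5 CPM in sgCtrl and 269.6, 276 and 240.7 CPM in sgERG (1.58). DTX1, a ubiquitin ligase of the NOTCH pathway, went from 63.6, 67.5 and 66.1 CPM to 179, 174 and 196 CPM (1.48). All 3 genes were higher in each sgERG library than in any control.

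The adjacent gene RASAL1, which turns off RAS, rose by 1.40 and starts 79530 bases from the start of DTX1. PHLDA1 rose by 1.90, ADA2, a secreted adenosine deaminase, by 1.83, and PSD4, an exchange factor for ARF6, by 1.67. FOXO6 (1.61), EMILIN2 (1.53), FCRLA, an Fc-receptor-like protein of B cells (1.52), MAFA (1.51) and LAT, an adaptor of T-cell receptor signalling (1.39), were also among them. STK35 rose by 1.39 with the widest spread of these genes: its sgERG values were 11.3, 22.7 and 13.1 CPM, and without sgERG replicate 2 its log2 change was 1.03. MT1X and MT2A, metallothioneins that bind zinc and copper, rose by 2.04 and 1.60. Metallothionein transcripts are near-identical, so reads may be split between copies.

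Promoter windows from RefSeq (GRCh38.p14) were searched on both strands for ETS cores, since ERG binds such sites. They run from 250 bases before to 50 bases after a start, and 9942 of the tested genes had one. Some lie far from the start of the gene in GENCODE, such as 229914 bases for RERGL and 15814 for KCNN1. A window is therefore not always the promoter in use. The motif CCGGAAGT was in 8.86% of these windows, against 2.98% of those of genes that fell, 2% of those that fell at least 2-fold, 6.73% of those that rose and 1.37% of those that rose at least 2-fold (1 of 73). The motif AGGAAGT, which cannot share a GGAA with the first, was in 8.15%, 9.19%, 9%, 8.37% and 13.7% in the same order. Of all 27305 windows, 4.44% held the first and 8.31% the second. A run of 3 consecutive GGAA units was in 0.0604% of tested windows and in none of the 100 windows of genes that fell at least 2-fold. These are counts of letters in short windows, with no test.

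Sequences are shown for promoters of genes that fell, to set a full ETS core beside a window without one. In the first pair, capitals mark CCGGAAGT or its complement. LIG4, the ligase of end joining, is shown at chr13:108218369-108218599 (minus strand) and PIK3C3, a lipid kinase of autophagy, at chr18:41954984-41955205 (plus strand). The last is the whole stretch between the starts of ABHD3 and MIB1, which lie head to head with starts 152 bases apart, at chr18:21704806-21704956 (minus strand). There capitals mark each GGAA or TTCC. The LIG4 and PIK3C3 sequences also hold GGAA or TTCC outside their capitals, left unmarked, so capitals are not to be compared with the last.
LIG4: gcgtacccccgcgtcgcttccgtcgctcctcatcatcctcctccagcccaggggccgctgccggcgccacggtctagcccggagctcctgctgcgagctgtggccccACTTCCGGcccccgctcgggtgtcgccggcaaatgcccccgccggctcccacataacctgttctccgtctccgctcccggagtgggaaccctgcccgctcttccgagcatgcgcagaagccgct
PIK3C3: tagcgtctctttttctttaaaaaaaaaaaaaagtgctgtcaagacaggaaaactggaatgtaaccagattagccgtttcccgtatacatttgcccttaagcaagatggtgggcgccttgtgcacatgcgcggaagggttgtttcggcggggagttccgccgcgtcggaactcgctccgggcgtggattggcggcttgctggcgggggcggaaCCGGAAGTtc
ABHD3 and MIB1: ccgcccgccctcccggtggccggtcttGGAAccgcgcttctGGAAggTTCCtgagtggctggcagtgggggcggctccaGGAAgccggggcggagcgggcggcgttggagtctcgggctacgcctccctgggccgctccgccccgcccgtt

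The pair on either side of the last sequence fell together. ABHD3 was at 138, 135 and 133 CPM in sgCtrl and 51.6, 57.3 and 50.1 CPM in sgERG. MIB1, a ubiquitin ligase that acts on NOTCH ligands and was chosen after its values were seen, was at 896, 874 and 880 CPM in sgCtrl and 395, 391 and 354 CPM in sgERG (log2 change -1.22, SE 0.05, adjusted p = 9e-08, edgeR). In both genes every sgERG library was below every control. PIK3C3 fell by 0.69, from 118, 118 and 115 CPM to 73.9, 72.6 and 71.1 CPM. ABHD3, MIB1 and PIK3C3 lie on chromosome 18, where 18.3% of tested genes fell against 7.74% over all.

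Within the ETS family, 20 members were tested, 5 rose and 5 fell, ERG itself among them, and the median log2 change was -0.03 beside 0.00 over all genes tested. The share called was 50%. Over all genes tested, 6.89% rose and 7.74% fell, or 14.6% in either direction. The counts of each list below are to be read beside these shares. SPIB, a B-lineage activator, rose most, from 15.4, 14.6 and 14.2 CPM to 47.3, 43.9 and 50.5 CPM (1.68), though its exons overlap an unnamed gene on the same strand. ELK3, a repressor that joins serum response factor at its sites, fell by 0.81, from 173 ± 4.7 to 98.4 ± 1.2 CPM (SD, n = 3 each). Reads assigned to ETV6 fell from 14.6, 12.4 and 12.5 CPM to 6.29, 7.15 and 6.23 CPM. Since Reh cells have lost their unrearranged ETV6 copy, this is no measure of ordinary ETV6. Counts summed per gene do not show which ETV6 reads belong to the fusion. The other risers, named after their values were seen, were SPI1 (0.34), ETS1 (0.28) and FLI1, the closest relative of ERG (0.16). With single libraries left out, 4 or 5 members rose and 3 to 5 fell, fewest without sgCtrl replicate 3 or sgERG replicate 2.

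Among 14 tested transcription factors of blood progenitors, 6 fell and 2 rose, with a median of -0.22. Reads assigned to RUNX1 fell by 0.47 on the log2 scale (611 ± 24 to 440 ± 7.3 CPM). RUNX1 marks the definitive blood lineage and is the fusion partner of ETV6 in these cells. Counts summed per gene cannot tell reads of the fusion from those of unrearranged RUNX1. LMO2, a bridging protein of stem-cell factor complexes, fell by 0.70, from 11.4, 11.6 and 10.9 CPM to 6.82, 6.49 and 7.51 CPM. GFI1 fell by 0.50 and MYB by 0.27, while IKZF2, in the same list, rose. With 1 library left out, 4 or 5 members fell.

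The B-lineage factors moved both ways: of 25 tested, 8 rose and 5 fell (median 0.07). BACH2, a repressor that holds B cells before plasma-cell differentiation, was at 162, 168 and 167 CPM in sgCtrl and 311, 305 and 300 CPM in sgERG (log2 change 0.88). XBP1, a driver of secretory differentiation, went the other way, from 356, 360 and 335 CPM to 179, 181 and 188 CPM (-0.94). MEF2C fell by 0.65 from 767 ± 20 to 489 ± 10 CPM, while IRF8 rose by 0.63 and ZEB2 by 0.44. PAX5, which keeps B-cell identity, rose by 0.16. Without sgCtrl replicate 3 its change was 0.15 and not called (adjusted p = 0.092, edgeR quasi-likelihood test), and its call was also lost under the replicate block (adjusted p = 0.065).

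Of 23 tested genes of the pre-B-cell receptor and its proximal signalling, 6 rose and 7 fell (median 0.03). CD72, an inhibitory co-receptor, rose by 0.94, the kinase BLK by 0.48 and the kinase SYK by 0.30. CD22, another inhibitory co-receptor, fell by 0.43 and the kinase PRKCB by 0.40. Between 3 and 9 members fell when single libraries were left out, fewest without sgCtrl replicate 3. In V(D)J recombination and end joining, 2 of 15 rose, by at most 0.26, and 3 fell: LIG4 from 51.4, 48.1 and 53.6 CPM to 23.6, 24.5 and 21.3 CPM (-1.14), RAG1 by 0.33 and DNTT by 0.29. With any library left out, 3 fell, and 1 rose without any 1 of the sgCtrl libraries. RAG1 overlaps RAG2 on the other strand.

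Antigen presentation by MHC class II had a median of -0.99, the lowest of the pathway lists, over only 5 tested of 13 genes. Of these, 4 fell and none rose. CIITA, the master activator of the class II genes, was at 177, 171 and 175 CPM in sgCtrl and 80.2, 75.0 and 74.1 CPM in sgERG (log2 change -1.19, SE 0.04). HLA-DRA was at 190, 182 and 185 CPM and then 92.4, 89.1 and 98.6 CPM (-0.99), and CD74, the invariant chain, at 1209, 1200 and 1170 CPM and then 615, 626 and 664 CPM (-0.91). The groups were separate in all 3 of these. HLA-DRB1 was near 1 CPM and lost its call in 4 of the 6 fits without 1 library. RFX5, a class II promoter factor, was at 162 ± 2.6 CPM in sgCtrl and 149 ± 2.4 CPM in sgERG and was not called (adjusted p = 0.064, edgeR). HLA genes are variable and alike, so their reads may be misassigned, and CIITA overlaps DEXI on the other strand. In MHC class I and antigen processing, 4 of 9 fell and none rose, and 2 fell without sgCtrl replicate 1, sgCtrl replicate 3 or sgERG replicate 2.

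Leukaemia surface antigens included 4 that rose and 8 that fell of 20 tested (median -0.22). CD24 rose from 371, 377 and 390 CPM to 704, 713 and 613 CPM (0.84). FLT3, a progenitor receptor kinase, fell by 0.74, CD99 by 0.56 and MME, which encodes CD10, by 0.44. FLT3 was at 162, 161 and 164 CPM in sgCtrl and 101.3, 103.1 and 87.21 CPM in sgERG, below every control.

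Of 18 tested markers of ETV6::RUNX1 leukaemia, 10 were called lower and none higher (median -0.26), and 9 or 10 fell with any library left out. The highest log2 change in the list was 1.95, in a member that was not called. Besides KCNN1 and PIK3C3, EPOR, the erythropoietin receptor, fell from 30.87, 29.37 and 29.03 CPM to 16.7, 16.84 and 16.98 CPM (-0.82). PCLO, a presynaptic scaffold, fell by 0.31. Among known targets of GGAA repeats in Ewing sarcoma, where ETS fusions bind such repeats, 3 of 9 fell and none rose: CAV1 from 8.52 ± 1.3 to 4.26 ± 0.31 CPM, FCGRT by 0.95 and PRKCB by 0.40. With any single library left out, 3 fell.

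Adhesion genes were mixed. Of 17 tetraspanins, TSPAN9, CD9 (-1.02), CD82 (-0.45) and CD53 (-0.22) fell and CD81, part of the B-cell co-receptor, rose by 0.33. CD53 lost its call in 4 of the 6 fits without 1 library, and CD82 with the transcript length offset. CD9 was at 55.8, 59.0 and 58.7 CPM in sgCtrl and 29.8, 26.8 and 28.7 CPM in sgERG. Of 17 integrins and homing receptors, 4 rose and 7 fell. ITGA4 rose by 0.67, from 266 ± 9.6 to 422 ± 21 CPM, and ITGB2, the shared beta chain of the leukocyte integrins, by 0.71. ITGAL, an alpha chain that pairs with ITGB2, fell by 0.91 (its values were known when it was picked). The falls were down to 3 without sgCtrl replicate 1 or sgCtrl replicate 3.

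**Figure D4:**
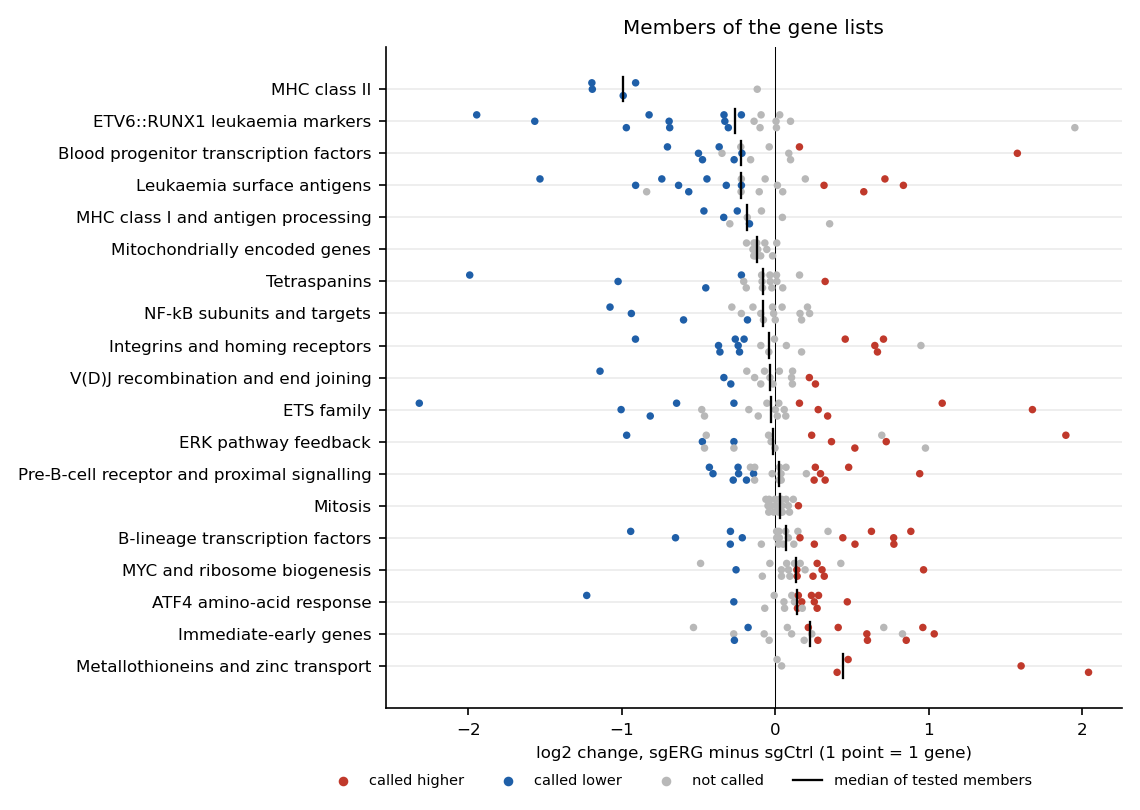
Each point is 1 tested gene at its log2 change, sgERG minus sgCtrl (x axis), in rows for 19 gene lists ordered by their median (black bar). Red points were called higher, blue lower and grey were not called, and the medians run from -0.99 for MHC class II to 0.44 for metallothioneins and zinc transport.

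In signalling, the ERK feedback list had 5 genes that rose and 3 that fell of 16. DUSP6, the ERK phosphatase, fell from 283, 284 and 282 CPM to 151, 139 and 145 CPM (-0.97), whereas PHLDA1 rose and RASAL3, a RAS inactivator, rose by 0.72. Of 20 immediate-early genes, 8 rose and 2 fell (median 0.23), and 4 rose without sgCtrl replicate 3. EGR1, the best known of these serum-response genes, was at 82.1, 73.7 and 66.3 CPM in sgCtrl and 177, 111 and 168 CPM in sgERG (1.04, SE 0.15, adjusted p = 0.001, edgeR), so its spread was wide and sgERG replicate 2 was nearest the controls.

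Of 17 NF-kB subunits and targets, 4 fell and none rose. BCL3, a nuclear partner of NF-kB, fell from 46.7, 44.4 and 42.0 CPM to 19.6, 20.7 and 22.9 CPM (-1.08), TNFAIP3, its feedback inhibitor A20, by 0.60 and LTB by 0.94. In the BCL2 family, 2 of 15 fell and 2 rose. BCL2 itself, which blocks apoptosis, went from 889, 840 and 857 CPM to 504, 492 and 479 CPM (-0.81), and BCL2L11, the pro-apoptotic BIM, rose by 0.38. BCL2 lies on chromosome 18, where 18.3% of tested genes fell against 7.74% over all. In JAK-STAT signalling, 5 of 20 fell and 3 rose, with PIM1, a kinase induced by STAT5, at -0.59 and BCL6 at -0.51.

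In the ATF4 response to amino-acid shortage, 8 of 17 rose and 2 fell, yet SLC7A11, the cystine transporter, fell from 69.7, 67.1 and 61.5 CPM to 29.2, 30.0 and 25.3 CPM (-1.23). The risers, such as CEBPB (0.47) and DDIT4 (0.24), numbered 3 without sgCtrl replicate 3. Of 20 genes of MYC and ribosome biogenesis, 7 rose and 1 fell, and 3 rose without sgCtrl replicate 1 or sgCtrl replicate 3. Metallothioneins and zinc transport had 4 of 6 up and none down, in all fits without 1 library, among them the zinc exporter SLC30A1 (0.40).

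In the cell-cycle lists no member fell. DNA replication had 5 of 19 up, the largest being LIG1 at 0.28, and 1 was up without sgCtrl replicate 1 or sgCtrl replicate 3. Mitosis had 1 of 20 up (5%). G1 control had 5 of 19 up, with CDKN1C, a cyclin-dependent kinase inhibitor, at 0.73. This was 3 without sgCtrl replicate 1 or sgCtrl replicate 3, and without sgERG replicate 3 there were 6 up and 3 down. None of the 13 mitochondrially encoded genes was called, although 5 were lower without sgERG replicate 2. The p53 targets had 1 up and 2 down of 20, a share close to the 14.6% over all genes, with 4 down without sgERG replicate 3. The interferon response had 3 up and 4 down of 31 (22.6%), but 1 up and none down without sgCtrl replicate 3 and 5 up without sgERG replicate 3.

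Sterol synthesis had 1 of 19 up and 4 down, with the exporter ABCG1 at -0.64, and fatty acid handling 4 of 14 down with CPT1A, which admits fatty acids to mitochondria, at -0.60. For sterol synthesis 2 were down without sgCtrl replicate 1 or 2, and for fatty acids 2 without sgCtrl replicate 1 or 3. The unfolded protein response had 2 up and 5 down of 17, and XBP1 was the lowest of them. Hypoxia and glycolysis had 1 up and 4 down of 24 (20.8%), with 2 down in 4 of the 6 fits without 1 library. Glucocorticoid receptor targets had 3 up and 4 down of 14, with 2 down without sgCtrl replicate 1 or 3. The other lists were PI3K and mTOR, with 2 up and 1 down of 20, chromatin repressors 2 up and 1 down of 22, and NOTCH and WNT genes only DTX1 up of 13. The shares called in them were 15%, 13.6% and 7.69%, close to or below the 14.6% over all genes tested.

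Markers of other cell types were measured next. The myeloid list summed to 134 to 152 CPM in sgERG and 106.6 to 109.2 CPM in sgCtrl. Of its 5 tested genes, 3 rose: CYBB, a subunit of the phagocyte oxidase, from 1.16, 1.06 and 1.34 CPM to 4.27, 4.19 and 3.87 CPM, CD33 by 0.98 and MPO by 0.42. CEBPA and ELANE had no read in any of the 6 libraries. In the T-cell list CD4 rose at under 2 CPM, with CD2 and CD3D at no read, and the list sums were 15.4 to 18.7 CPM against 14.6 to 17.2 CPM. The NK-cell list summed to at most 5.09 CPM and the erythroid list to at most 0.945 CPM. Stromal sums were 93.45 to 100.6 CPM in sgERG and 80.0 to 83.0 CPM in sgCtrl, with COL3A1, DCN, LUM and THY1 at no read, endothelial sums overlapped, with CDH5, KDR and SOX17 at no read, and megakaryocyte sums were 47.8 to 52.0 against 57.0 to 59.7 CPM, with PF4 at no read. All 6 libraries came from populations of the Reh line, so these levels do not show that other cell types were present. The source of the reads was not tested.

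The guides were last set beside induction of wild-type ETV6, an ETS repressor that these cells lack. The 2 comparisons share no library, but they differ in vector, population, deposit and time (72 against 48 hours), which cannot be told apart from the factor. Mitochondrial genes held 2.58% to 3.30% of the reads in the guide libraries and 0.96% to 1.42% in ETV6_WT and tagBFP. ETV6_WT against tagBFP called 5100 of 13961 genes (36.5%). Of 12711 genes tested in both, 278 fell in both, 27.4% of those that fell with sgERG and 10.5% of those that fell with ETV6_WT, and 252 rose in both (28.2% and 10.7%). Another 370 fell with sgERG and rose with ETV6_WT (36.5% and 15.6%), and 240 rose with sgERG and fell with ETV6_WT (26.8% and 9.09%). Over all 12711 genes, 20.8% fell and 18.6% rose with ETV6_WT, the shares to set beside the first percentage of each class. With sgERG 7.99% fell and 7.04% rose, the shares to set beside the second.

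Of the 117 genes that fell at least 2-fold with sgERG, 60 (51.3%) also fell with ETV6_WT, 23 (19.7%) rose and 34 were not called. Of the 100 that rose at least 2-fold, 30 also rose, 13 fell and 57 were not called. The difference between the effects, tested in one edgeR fit over the 12 libraries, was called for 4284 of 14903 genes (28.7%). With an offset for effective transcript length, the genes called in both numbered 297 in the same direction, down from 530, and 321 in opposite directions, down from 610.

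Several of the strongest genes moved the same way in both. SLC17A7 changed by -1.72 with sgERG and -1.67 with ETV6_WT, a difference of -0.04 (SE 0.11, adjusted p = 0.83, edgeR). ERFE, a hormone that lowers hepcidin, changed by -1.19 and -1.23 and LMTK3, a kinase-family protein, by -1.23 and -1.25. RASAL1 rose by 1.40 and 1.42 and IKZF2 by 1.58 and 1.38. For KCNN1 the fall was larger with sgERG, -1.95 against -1.34 (difference -0.60, SE 0.07, adjusted p = 3.3e-05), and for RERGL it was smaller, -1.59 against -2.25 (difference 0.67, SE 0.15, adjusted p = 0.0041). DPF3, MMP15 and RUBCNL also fell in both.

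Other genes went in opposite directions. LIG4 fell to 45.3% of control with sgERG and rose with ETV6_WT from 64.7, 65.2 and 68.4 CPM to 203, 205 and 189 CPM, a difference of -2.72 (SE 0.08, adjusted p = 1.6e-11, edgeR). CD9 rose with ETV6_WT from 5.29, 6.72 and 7.08 CPM to 28.3, 26.6 and 26.0 CPM (difference -3.11). The 2 pairs of groups were scaled separately, and CD9 was at 55.8 to 59.0 CPM in sgCtrl but at most 7.08 CPM in tagBFP. OSR2 rose with sgERG and fell with ETV6_WT by 0.91 (difference 3.05). PTPRE, a receptor phosphatase (difference -2.14), SHROOM3, an actin regulator (-2.18), ATP9A (-1.96), SLC35E3 (-1.82), NKAIN4 (-1.92) and GBP4, an interferon-induced GTPase (-1.80), fell with sgERG and rose with ETV6_WT. The rise of ETV6 itself in ETV6_WT includes the transgene. ERG rose by 0.12 with ETV6_WT, from 300 ± 5.4 to 326 ± 7.0 CPM.

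**Figure D5:**
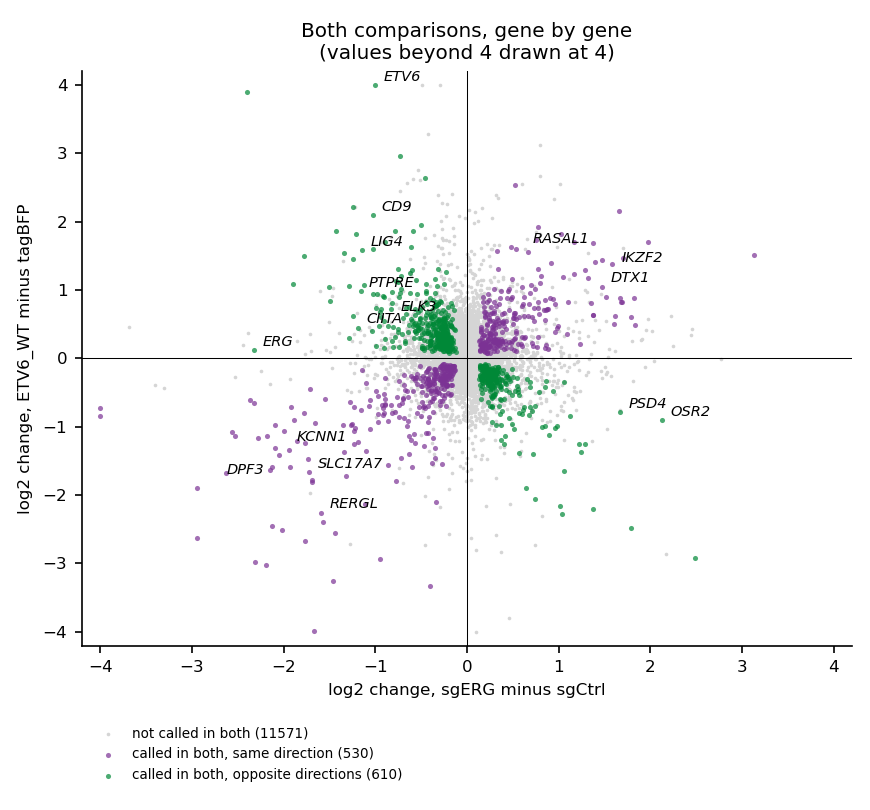
Each point is 1 of 12711 genes, with its log2 change for sgERG minus sgCtrl on the x axis and for ETV6_WT minus tagBFP on the y axis (values beyond 4 are drawn at 4). Purple points (530) were called in both in the same direction, green points (610) in opposite directions and grey points were not called in both.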

How the data were processed

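RNA from Reh cells was sequenced with a directional library kit, per the labels' protocols. Per the submitters' processing notes, the authors quantified reads with Salmon 0.11.3 on hg38. The deposited tables give, per transcript, an estimated count, TPM and effective length. Other settings, including strand use: not given in the sources used here.

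Estimated counts were summed per gene through GENCODE 29 (90.3% of transcripts named, 33367 genes) and rounded. Unnamed transcripts held 6.67% to 7.56% of reads per library and were left out. Genes passing edgeR's filterByExpr were scaled by TMM and tested with edgeR 4.0.16 (quasi-likelihood, Benjamini-Hochberg, 0.05) in R 4.3.3. DESeq2 1.42.0, limma 3.58.1 and other scalings, filters, offsets and left-out libraries were alternatives. The script was tested on simulated data. Same-numbered libraries did not deviate together (correlations 0.03, -0.19 and -0.13), so replicate numbers were not used as pairs. Pairs of libraries within a group differed beyond sampling noise (chi-square per degree of freedom at least 3.62 for the guides and 2.79 for ETV6_WT and tagBFP).

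Named genes were ERG and its tested neighbours within 1 Mb; the 15 largest rises and falls among called protein-coding genes with at least 5 CPM, separate groups and no exon overlap; long non-coding RNAs by the same rule; leading members of 43 gene lists; and the 10 strongest genes shared with, and opposed to, ETV6_WT. Members and lists were chosen with earlier results of these data known. Libraries with mutant ETV6 were not used here. The number of reads per library limits genes under 1 CPM most.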

Additional observations from a re-analysis of the deposited data

How the results depend on the processing

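The count of called genes stayed within 1.5 times of 1969 in the fits with DESeq2, limma-voom, other scalings, filters, thinning to the shallowest library, offsets for GC content (2560) or transcript length (1358), and the replicate block (1536). Thinning and the GC offset were chosen after seeing the data. Exceptions were 1160 calls without sgCtrl replicate 1 (504 higher, 656 lower) and 1162 without sgCtrl replicate 3 (506 higher, 656 lower). Leaving out 1 library gave 1160 to 2302 calls, 504 to 1054 higher and 656 to 1248 lower. The larger side of the calls changed with scaling: library totals alone gave 1134 higher and 931 lower, and upper-quartile scaling 1013 higher and 960 lower. With the transcript length offset, calls for ETV6_WT fell from 5100 to 2735 and for the difference from 4284 to 2666, and genes called in both numbered 297 in the same and 321 in opposite directions. The last count was 352 without sgCtrl replicate 1 and 350 without sgCtrl replicate 3, and 350 to 732 over all fits without 1 library. ERG was at 22.48% of control on the TPM scale. No called change of a named gene turned its sign under an alternative. Of 191 named genes that were called, 143 kept the call in all 18 settings, and the replicate block, tried although the numbers do not pair the libraries, lost 19 and moved the count of calls to 1536. Low reads limit genes near 1 CPM, such as HLA-DRB1, CD4 and SLC4A1.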

Other observations

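Histone genes, a group looked at after its values were seen, were higher with sgERG: of 42 tested, 24 rose and none fell. Their summed level was 242, 309 and 234 CPM in sgCtrl and 747, 388 and 341 CPM in sgERG, so the groups did not overlap but sgERG replicate 1 was far above the rest, and highest of the 6 libraries in 39 of 42 genes. Without that library 14 rose and the median log2 change was 0.50 in place of 0.98. Histone transcripts are near-identical, so reads may be split between copies.

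Chromosome 18 was also looked at after its values were seen. There, 33 of 180 tested genes fell (18.3%) against 7.74% over all, among them ABHD3, MIB1, PIK3C3, FAM69C and BCL2. The share was 18.9% with the GC offset, beside 10.3% over all, and 18.4% without sgERG replicate 3, beside 9.1%. Its cause was not tested, and the guide cannot be told apart here from the cell population that carried it.

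Neighbouring genes were examined in the same way, with the values known. Within 100 kb and with no shared exon, 43.4% of genes that fell at least 2-fold had a neighbour that fell (49 of 113), against 19.7% of all tested genes with a tested neighbour. With the GC offset these were 52.9% and 29.1%. For genes that rose at least 2-fold, 51.8% had a neighbour that rose, or 46.5% with histone genes left out. The share was 22.4% over all tested genes with a tested neighbour, histones included. Examples are KCNN1 with ARRDC2 (-1.95 and -0.53), SLC17A7 with FCGRT and RCN3 (-1.72, -0.95 and -1.17), and DTX1 with RASAL1 (1.48 and 1.40). The cause was not tested.

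Of 130 long non-coding RNA genes tested, 3 rose and 7 fell, beside 6.89% and 7.74% over all tested genes. BLACE fell by 0.19, from 134 ± 7.3 to 117 ± 3.5 CPM, but its call was lost in 4 of the 6 fits without 1 library. It rose by 0.29 with ETV6_WT.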
